A study of Mus musculus with 12 samples.

Results

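The transcripts described here encode the enzymes of the tricarboxylic acid (TCA) cycle, of its supply with pyruvate, and of mitochondrial fatty acid oxidation. They were 41 genes chosen by name, and all 41 were found among the 25239 genes counted and passed the low-count filter that left 14901 genes. RNA was sequenced from SCA1+ fibroblasts of the back skin of wild type male C57BL/6 mice of 8 weeks, sorted as live cells without CD45, a leukocyte protein, or CD31, an endothelial protein. Skin without a wound (NW) was set beside full-thickness wounds of a 4 mm biopsy punch at 16 h, 1.5 d and 3 d. Each of the 4 groups held 3 libraries, each from a mouse of its own. The sort on SCA1 takes only the fibroblasts that carry this surface protein, so the groups do not stand for all fibroblasts of the skin.

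The TCA cycle takes up acetyl-CoA, made from pyruvate by the pyruvate dehydrogenase complex or from fatty acids by beta-oxidation, and passes electrons to the respiratory chain while its intermediates feed the synthesis of lipids, amino acids and nucleotides. Fatty acids enter mitochondria through the carnitine shuttle and are then shortened in rounds by acyl-CoA dehydrogenases, a hydratase, a hydroxyacyl-CoA dehydrogenase and a thiolase, each family divided by chain length. Early wounds are poorly perfused and rich in lactate, and the dermis around them holds both fibroblasts and fat-storing adipocytes that use these enzymes.

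The libraries held 26389453 to 43493475 counted fragments, and the member with the fewest, Acads, still had at least 137 in each library. All 10 fibroblast markers had counts in every library. Keratinocyte transcripts were present throughout. Marker sums are given in CPM (counts relative to library size) without further scaling. The CPM of members and other single genes are also adjusted by the trimmed mean of M values (TMM). The 10 fibroblast markers summed to 88155 to 177282 CPM in NW and 43611 to 103702 in 16 h wounds. At 1.5 d they summed to 84006 to 113735 and at 3 d to 123030 to 206939. The part of this sum in the changes of the members was not tested. The 18 keratinocyte markers summed to 19353 to 39389 CPM in NW and 8911 to 14726 in 16 h wounds. They summed to 4379 to 7721 in those of 1.5 d and 863 to 14518 in those of 3 d. Every NW library lay above every wound library, so that keratinocyte RNA and wounding cannot be told apart in comparisons with NW. The 10 markers of mature adipocytes summed to 49.9 to 92.9 CPM in NW and to between 0.623 and 3.90 CPM in the 9 wound libraries, and those of endothelium to 76.0 to 119.7 CPM in NW and to between 12.98 and 55.7 CPM in wounds. The 8 Schwann cell and melanocyte markers summed to 65.8 to 77.9 CPM in NW and to between 4.06 and 23.3 in wounds, and the 9 of pericytes and vascular smooth muscle to 52.9 to 93.0 in NW, to between 18.9 and 34.4 at 16 h and 1.5 d, and to 47.7 to 73.3 at 3 d. Macrophage markers summed to 40.2 to 100.9 CPM over all libraries, skeletal muscle markers to 3.69 to 27.5, and neutrophil markers to 0.521 to 2.66 in NW, 10.3 to 24.6 in 16 h wounds, 5.89 to 9.75 in those of 1.5 d and 1.39 to 6.06 in those of 3 d.

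A library of each group also stood apart by gene length. The balance of short over long genes was taken as the median log2 CPM of 955 genes under 1500 exon bases minus that of 2637 genes over 4000, among well expressed genes. It was 0.83 in NW replicate 2, 0.40 in replicate 3 at 16 h, 0.86 in replicate 1 at 1.5 d and 0.64 in replicate 3 at 3 d, and between -0.71 and -0.12 in the other 8 libraries. In these 4 libraries 16 to 18 of the 19 members under 2000 exon bases lay above their own group mean, against 1 to 7 of 19 in the others. Where the call of a gene described here ended without these 4 libraries, that is said beside it. That fit keeps 2 libraries in each group, so a call that ended there cannot be laid to gene length alone.

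**Figure D1:**
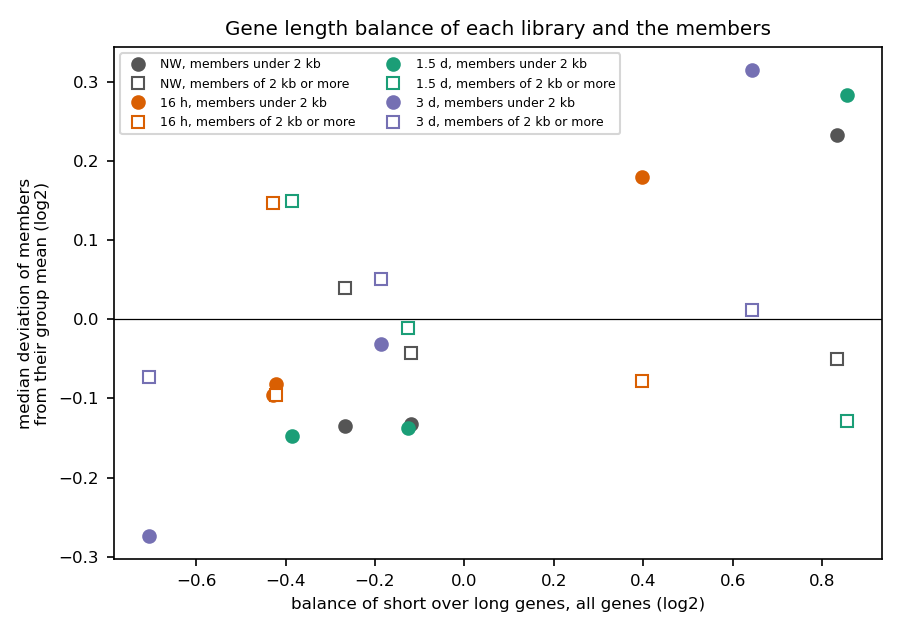
Each point pair is 1 of 12 libraries: the x axis gives its balance of short over long genes (log2), the y axis the median deviation of the members from their group mean (log2), with filled circles for the 19 members under 2000 exon bases and open squares for the 22 longer ones, coloured by group. The 4 libraries with a balance of 0.40 to 0.86 hold the 4 highest medians of the short members, between 0.18 and 0.31.

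Among the 4 groups 17 of 41 members differed (edgeR F test, adjusted p under 0.05), where 29.7% of all genes tested did. Of the 15 genes of pyruvate entry and of the ring, 6 rose at 16 h, 5 at 1.5 d and 1 at 3 d, and none fell. Of the 7 NADP-linked, cytosolic and anaplerotic enzymes, which feed the cycle or draw on it, 1 rose and 2 fell at 16 h, and 4 rose and none fell at 1.5 d and at 3 d. Of the 19 genes of fatty acid oxidation, 1 rose and 3 fell at 16 h, 2 rose and 2 fell at 1.5 d, and 2 rose and 1 fell at 3 d. At 16 h 8 members rose, beside 13.5% of all genes, and 5 fell, beside 11.2%. At 1.5 d 11 rose, beside 13.7% of all genes, and 2 fell, beside 10.8%. At 3 d 7 rose, beside 12% of all genes, and 1 fell, beside 9.15%. The median log2 change of the 41 members against NW was 0.03, 0.39 and 0.22 at the 3 wound times, where that of all genes was -0.04, 0.01 and 0.00. A transcript that is lower in such bulk libraries can mean fewer cells that carry it or less of it in each cell, and these cannot be told apart.

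**Figure D2:**
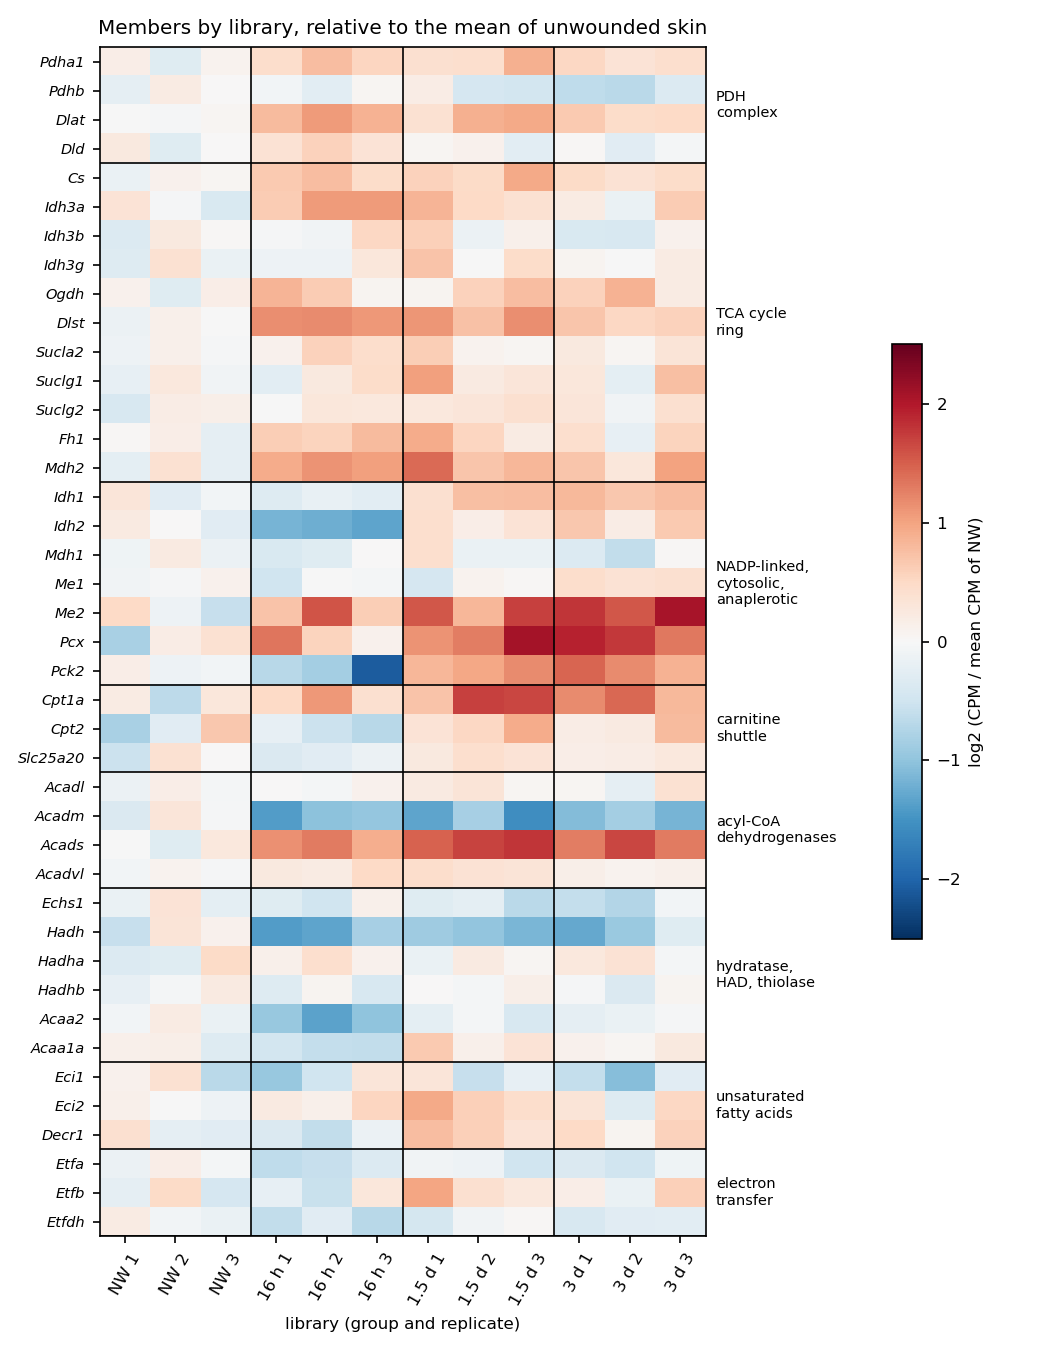
Rows are the 41 members by role, columns the 12 libraries, and colour the log2 ratio of CPM to the mean of NW, from -2.5 in blue to 2.5 in red. The 16 h libraries are red at Dlat, Dlst, Mdh2, Cs and Idh3a and blue at Idh2, Pck2, Acadm, Hadh and Acaa2, and Me2, Pcx, Cpt1a and Acads are red at 1.5 d and 3 d.

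The libraries of NW and 16 h did not overlap for 13 members that were higher at 16 h and 8 that were lower, beside 20.4% and 20.9% of all genes. In a fit without the 4 libraries of short-gene excess, 11 members differed among the groups, beside 22.9% of all genes. There 6 rose at 16 h (all genes 13.2%) and 5 fell (8.05%), 9 rose at 1.5 d (11.6%) and 0 fell (6.9%), and 8 rose at 3 d (10.9%) and 1 fell (5.92%). With the gene length balance as a covariate 24 differed, beside 40.7% of all genes. There 13 rose at 16 h (18.2%) and 8 fell (14%), 18 rose at 1.5 d (18.7%) and 2 fell (14.4%), and 12 rose at 3 d (15.7%) and 3 fell (11.9%). All member calls that ended without the 4 libraries held with this covariate, in a fit of all 12 libraries. With the keratinocyte sum as a covariate 6 differed, beside 13.4% of all genes: Dlst, Idh1, Idh2, Pck2, Acads and Acaa2. There 5 rose at 16 h (8.56%) and 4 fell (6.06%), 1 rose at 1.5 d (3.76%) and 0 fell (1.74%), and 0 rose (3.07%) and 0 fell (0.805%) at 3 d. The 1 at 1.5 d was Acads. All other member calls against NW at 1.5 d, and all at 3 d, ended with this covariate. At 16 h those of Pdha1, Cs, Me2 and Hadh did. This limit is not repeated beside each gene. DESeq2 called 8 lower at 16 h, beside 12.3% of all genes, and 2 lower at 3 d, beside 9.72%. These 2 shares are of 19745 genes with any count, low-count genes among them. They are therefore not on the same base as the edgeR shares, which are of genes that passed the low-count filter.

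**Figure D3:**
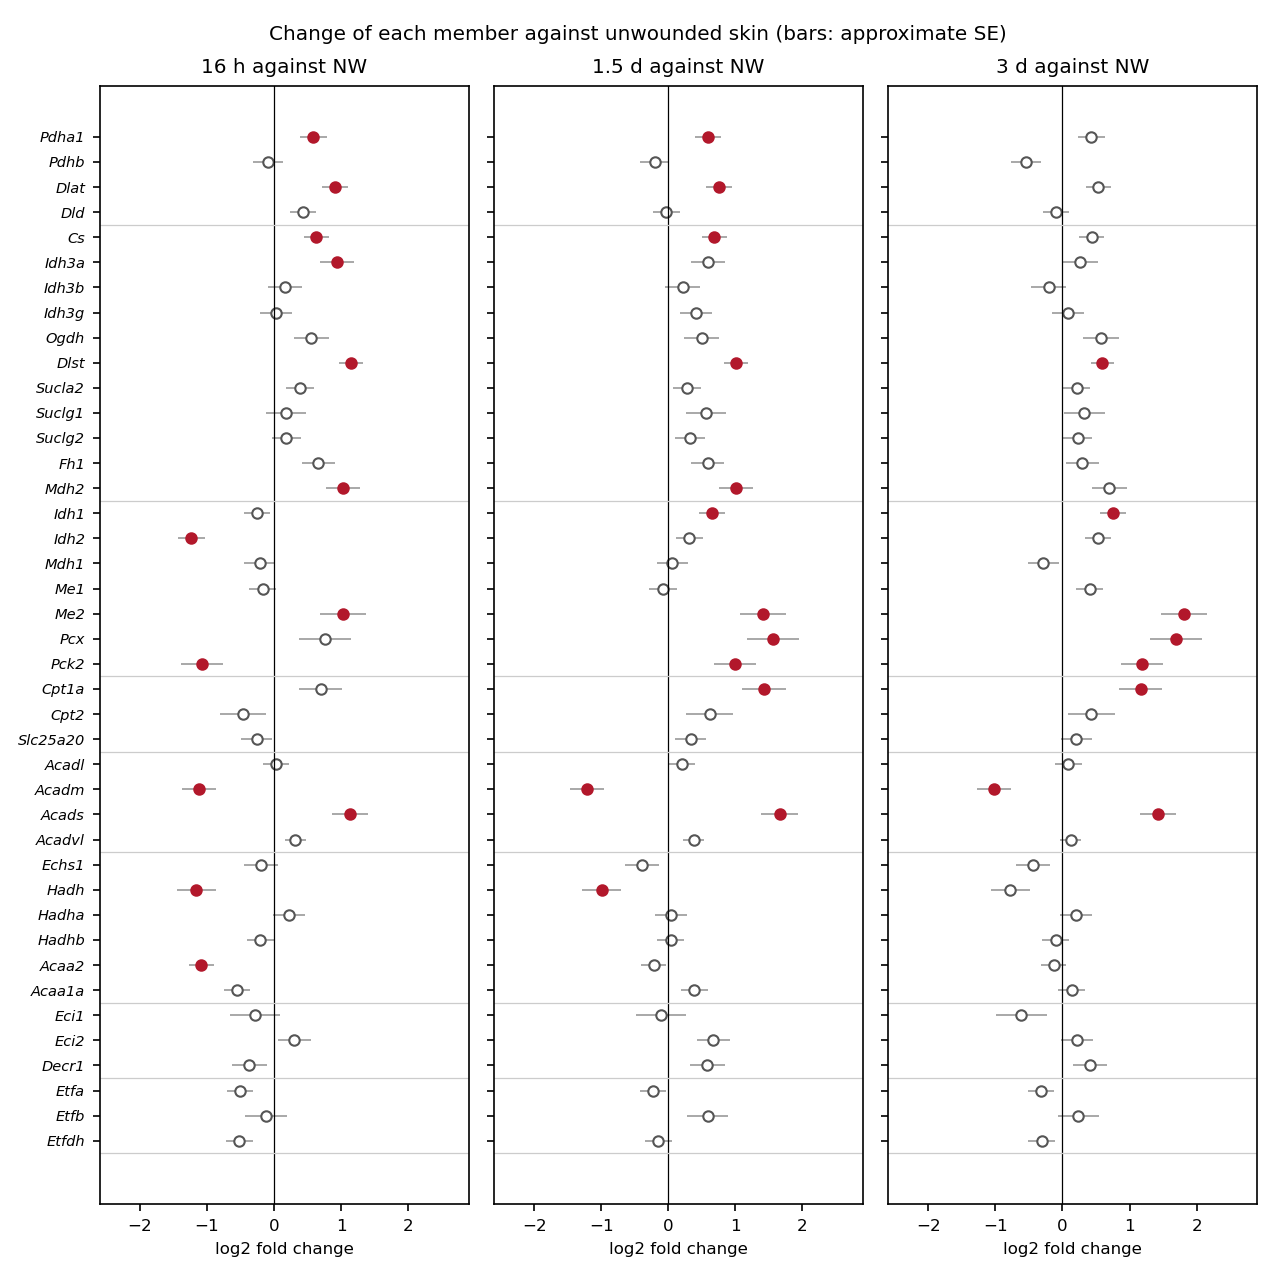
Each panel gives the log2 fold change against NW of the 41 members at 16 h, 1.5 d or 3 d, with bars for the approximate SE, filled red where called and open where not. Called changes lie between -1.23 and 1.14 at 16 h, -1.21 and 1.66 at 1.5 d and -1.03 and 1.81 at 3 d.

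Per kilobase of exon, the members ranged from Mdh2, a malate dehydrogenase, at the top of the order over 12 libraries to Me2, a malic enzyme, at the bottom. Mdh2 averaged 155 CPM per kb in NW and 315 at 16 h. Next came the electron transfer flavoprotein subunits Etfb, at 94.6 CPM per kb in NW, and Etfa, at 107, and the thiolase Acaa2, at 99.2. At the low end, Pck2 averaged 6.8 CPM per kb in NW, Pcx 3.18, Acads 2.97 and Me2 2.49. Each of these 4 low genes was called higher at 1.5 d and 3 d. Summed per kb by role, the 11 genes of the ring stood at 493 ± 76.1 in NW, 789 ± 44.3 in 16 h wounds, 799.7 ± 151 in those of 1.5 d and 660.3 ± 105 in those of 3 d (SD, n = 3). The 7 NADP-linked, cytosolic and anaplerotic enzymes summed to 217 ± 19.4 in NW, 158 ± 6.31 in 16 h wounds, 281 ± 15.4 in those of 1.5 d and 293 ± 33.6 in those of 3 d. Single genes carried much of both sums: between NW and 16 h the mean of Mdh2 went from 155 to 315 and that of Idh2 from 71.3 to 30.3 CPM per kb, while Me2 went the other way than Idh2, from 2.49 to 5.07.

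**Figure D4:**
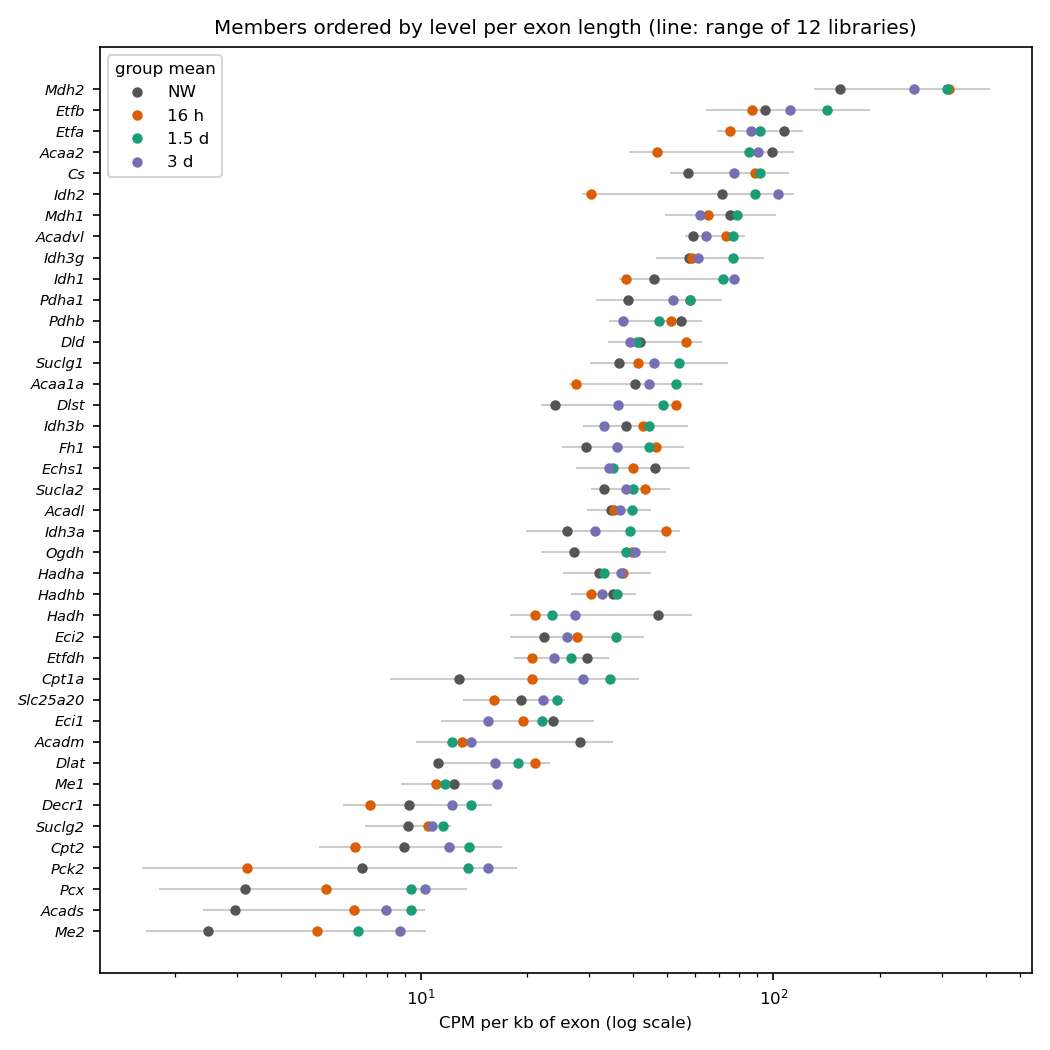
The 41 members are ordered by their mean CPM per kb of exon over 12 libraries (log axis), with a dot for each group mean and a grey line from the lowest to the highest library. Mdh2 leads at 155 in NW and 315 at 16 h, and the 16 h dots of Idh2, Pck2 and Acaa2 lie left of the other groups.

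Pyruvate enters the cycle through the pyruvate dehydrogenase complex. Of its 4 members 2 were called higher at 16 h and at 1.5 d, beside 13.5% and 13.7% of all genes. Dlat (chr9:50634633-50659780 in mm10), the acetyl-transferring core, stood at 44.5, 44.2 and 46.5 CPM in NW, 78.2, 93.9 and 82.2 in the 16 h wounds, 58.6, 83.6 and 86.6 in those of 1.5 d and 70.5, 62.1 and 63.4 in those of 3 d. Every wound library lay above every NW library, and the NW libraries lay close together. The log2 change was 0.91 (SE 0.19, adjusted p = 0.00452) at 16 h and 0.76 (SE 0.19, adjusted p = 0.0119) at 1.5 d, and 0.54 (SE 0.19, adjusted p = 0.0631) at 3 d, which did not pass. The 1.5 d call ended without 1.5 d replicate 3 (adjusted p = 0.0535). Pdha1, the decarboxylating alpha subunit, stood at 124, 89.7 and 117 CPM in NW, 149, 188 and 159 in the 16 h wounds, 146, 148 and 203 in those of 1.5 d and 159, 140.2 and 147 in those of 3 d. Its wound libraries were all above NW, but the changes of 0.58 (SE 0.20, adjusted p = 0.0481) at 16 h and 0.59 (SE 0.20, adjusted p = 0.0462) at 1.5 d held in 6 and 3 of 20 alternative settings, and neither without the 4 libraries of short-gene excess. Pdha1 also shares 21.1% of its exon length with Map3k15, and fragments there are not counted, so its level is uncertain. Pdhb, the beta subunit, was not called: it stood at 69.2, 92.9 and 81.2 CPM in NW and 52, 50.8 and 64 at 3 d, with no overlap (log2 change -0.55, adjusted p = 0.0961). Dld, the lipoamide dehydrogenase shared with the oxoglutarate complex, stood at 112, 77 and 96.4 CPM in NW and 123, 143 and 119.96 at 16 h and was not called.

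The ring as listed counts subunits of the same enzyme as separate genes, and succinate dehydrogenase is counted with the other genes of these pathways. Within the ring, 4 of 11 genes rose at 16 h, 3 at 1.5 d and 1 at 3 d, and none fell. Of all genes 13.5%, 13.7% and 12% rose at these times, and 11.2%, 10.8% and 9.15% fell. Dlst (chr12:85110833-85134091), the succinyl-transferring core of the oxoglutarate dehydrogenase complex, stood at 60.4, 73.1 and 66.1 CPM in NW, 149, 150.1 and 141 in the 16 h wounds, 143, 111 and 149 in those of 1.5 d and 108, 94.7 and 98.7 in those of 3 d. All 9 wound libraries exceeded all NW libraries, and the 16 h libraries were the closest to each other. Its log2 change was 1.14 (SE 0.18, adjusted p = 0.000693) at 16 h, a 2.21-fold rise, 1.01 (SE 0.18, adjusted p = 0.00151) at 1.5 d and 0.59 (SE 0.18, adjusted p = 0.0296) at 3 d. The 3 d call ended without NW replicate 1 or 3 or 3 d replicate 1 or 3 (adjusted p from 0.0544 to 0.113). Ogdh, the decarboxylase of the same complex, was not called: 206, 155 and 216 CPM in NW, 345, 300.4 and 203 in the 16 h wounds, 201, 287 and 328 in those of 1.5 d and 287, 353 and 221 in those of 3 d. Its libraries overlapped NW at 16 h and 1.5 d but not at 3 d, and the lowest library of each group was the one with the short-gene excess (Ogdh has 7106 exon bases). At 16 h, Ogdh was called higher without those 4 libraries.

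Malate dehydrogenase 2, Mdh2 (chr5:135778649-135790386), makes oxaloacetate in mitochondria and led all members in level. It stood at 167, 258 and 169 CPM in NW, 378, 429.6 and 404 in the 16 h wounds, 526, 319 and 352 in those of 1.5 d and 322, 241 and 400.3 in those of 3 d. NW replicate 2 was the highest of its group, and at 3 d replicate 2 fell below it, so the 3 d and NW groups overlapped while the 16 h and 1.5 d groups lay clear of NW. The log2 change was 1.03 (SE 0.26, adjusted p = 0.0123) at 16 h, 1.01 (SE 0.26, adjusted p = 0.013) at 1.5 d and 0.70 (SE 0.26, adjusted p = 0.0718) at 3 d. The 3 d change passed once the 4 libraries of short-gene excess were left out, and the 1.5 d call ended without NW replicate 3 or 1.5 d replicate 1 (adjusted p from 0.0507 to 0.0514). Its cytosolic partner in the malate shuttle, Mdh1, was not called at any time, at 148 ± 21.5 CPM in NW and 127 ± 19.2 at 16 h (SD, n = 3). The 250 bases before the Mdh2 start hold 3 copies of a palindrome, TCTCG followed by its reverse complement, at bases -190 to -181, -63 to -54 and -29 to -20, and are shown for this repeat (chr5:135778399-135778648, plus strand, RefSeq on GRCm38.p6). Capitals mark the palindromes and a GC box:
Mdh2: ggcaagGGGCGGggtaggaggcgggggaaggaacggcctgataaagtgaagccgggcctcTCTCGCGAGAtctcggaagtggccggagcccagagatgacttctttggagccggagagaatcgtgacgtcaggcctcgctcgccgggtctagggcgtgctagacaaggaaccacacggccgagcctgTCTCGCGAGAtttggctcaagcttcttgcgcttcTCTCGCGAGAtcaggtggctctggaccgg
Of 32841 promoter stretches of that length 0.39% hold the palindrome on either strand, and Mdh2 was the only member promoter among 45 to do so. This motif was looked for after the sequence had been seen.

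**Figure D5:**
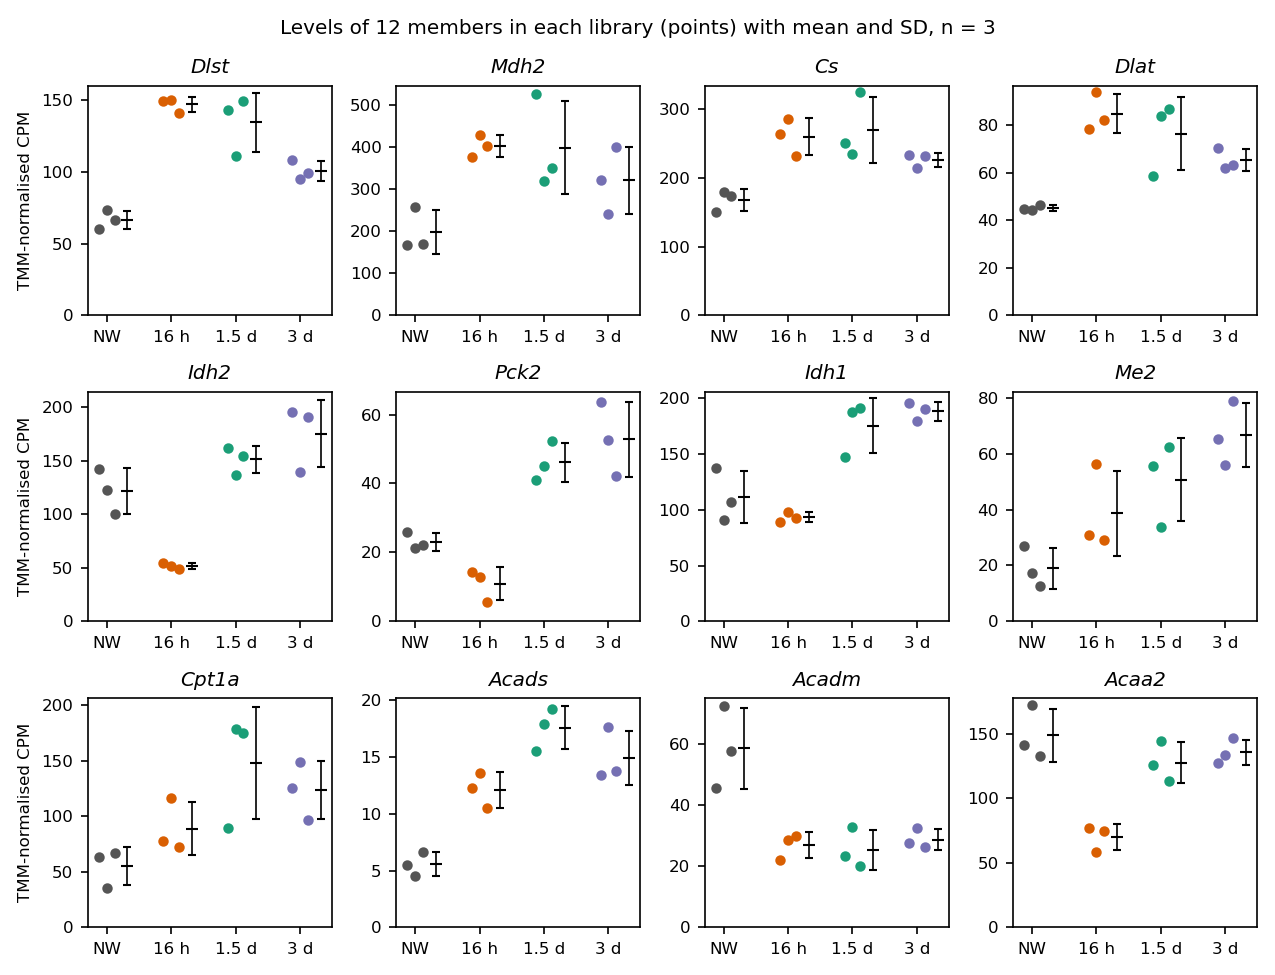
Each panel shows 1 of 12 members, with TMM-normalised CPM on the y axis from 0, a point for each library of the 4 groups and a bar for the mean ± SD beside it (n = 3). Idh2, Pck2 and Acaa2 dip at 16 h, Acadm is low in all wound libraries, and Acads is high in all of them.

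Citrate synthase, Cs (chr10:128337727-128362482), which joins acetyl-CoA to oxaloacetate, stood at 149.6, 179 and 174 CPM in NW, 263, 285 and 231 in the 16 h wounds, 249.7, 234 and 324 in those of 1.5 d and 232, 214 and 232 in those of 3 d. No wound library reached down to NW, and those of 1.5 d were the most spread. Its log2 change was 0.63 (SE 0.18, adjusted p = 0.0241) at 16 h and 0.68 (SE 0.18, adjusted p = 0.0164) at 1.5 d, and 0.43 (SE 0.18, adjusted p = 0.114) at 3 d did not pass. The 16 h call ended without NW replicate 1 or 3 or 16 h replicate 1 or 2 (adjusted p from 0.0511 to 0.101) and the 1.5 d call without NW replicate 1 or 1.5 d replicate 3 (adjusted p from 0.0543 to 0.0809). Idh3a, the catalytic subunit of the NAD-linked isocitrate dehydrogenase, stood at 78.5, 60.7 and 47.6 CPM in NW and 96.7, 130.3 and 131 at 16 h. Those groups did not overlap, and the log2 change was 0.94 (SE 0.26, adjusted p = 0.0178). The call ended without NW replicate 2 or 3 or 16 h replicate 2 or 3 (adjusted p from 0.0506 to 0.0662) and without all 4 libraries of short-gene excess (0.85, adjusted p = 0.0564). The other subunits of that enzyme, Idh3b and Idh3g, were not called, with log2 changes of 0.16 and 0.03 at 16 h, and the difference between subunits was not tested. Fumarase, Fh1, stood at 49.2, 53.8 and 41.1 CPM in NW and 73.3, 70.8 and 83.5 at 16 h and did not pass (log2 change 0.66, adjusted p = 0.0637), though the groups did not overlap. The succinyl-CoA ligase subunits Sucla2, Suclg1 and Suclg2 were not called at any time, with log2 changes of 0.39, 0.18 and 0.18 at 16 h.

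Of the 7 enzymes that exchange intermediates with the cycle, 5 differed among the groups, beside 29.7% of all genes. Idh2 (chr7:80094847-80115350), the NADP-linked isocitrate dehydrogenase of mitochondria, stood at 142, 122 and 99.8 CPM in NW, 54.1, 51.9 and 48.8 in the 16 h wounds, 162, 137 and 154 in those of 1.5 d and 195, 139 and 191 in those of 3 d. The 16 h libraries lay below all 9 others and within 5.3 CPM of each other, while the 1.5 d and 3 d libraries overlapped NW. Idh2 fell at 16 h by a log2 change of -1.23 (SE 0.20, adjusted p = 0.000877). It was higher at 1.5 d than at 16 h by 1.55 (SE 0.20, adjusted p = 0.002) and at 3 d by 1.76 (SE 0.20, adjusted p = 0.000268), while 1.5 d and 3 d did not pass against NW (0.31 and 0.53). Its 3 calls held in all 20 alternatives. Idh1 (chr1:65158616-65186479), the cytosolic form, which supplies NADPH, stood at 137, 91.1 and 107 CPM in NW, 89, 98.3 and 92.7 in the 16 h wounds, 147, 187 and 191 in those of 1.5 d and 196, 179 and 190.1 in those of 3 d. The 16 h libraries lay within the range of NW or just below it, and the 1.5 d and 3 d libraries lay above both. Idh1 rose against NW by 0.65 (SE 0.19, adjusted p = 0.0257) at 1.5 d and 0.75 (SE 0.19, adjusted p = 0.0143) at 3 d. Those calls ended without NW replicate 2 or 3 or 1.5 d replicate 2 or 3 (adjusted p from 0.0695 to 0.0907) and without NW replicate 2 or 3 or 3 d replicate 1 (adjusted p from 0.0587 to 0.0641).

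Pck2 (chr14:55540266-55550020), mitochondrial phosphoenolpyruvate carboxykinase, which draws oxaloacetate off towards phosphoenolpyruvate, had the largest fold among members between wound times. It stood at 26.1, 21.2 and 22.2 CPM in NW, 14.3, 12.9 and 5.5 in the 16 h wounds, 41, 45.2 and 52.2 in those of 1.5 d and 63.6, 52.6 and 42.1 in those of 3 d. The 16 h libraries were lowest, those of NW lay between, and those of 1.5 d and 3 d were highest; only the last groups overlapped. The lowest value was that of 16 h replicate 3, the library of that group with the short-gene excess and with 2.01% of its counts on the ribosomal transcript Rn45s. Pck2 fell by a log2 change of -1.08 (SE 0.31, adjusted p = 0.0233) at 16 h and rose by 0.996 (SE 0.31, adjusted p = 0.033) at 1.5 d and 1.19 (SE 0.31, adjusted p = 0.0166) at 3 d. Against 16 h it was 4.22-fold higher at 1.5 d, a log2 change of 2.08 (SE 0.32, adjusted p = 0.00558), and 4.83-fold higher at 3 d, a log2 change of 2.27 (SE 0.32, adjusted p = 0.000987). The fall at 16 h ended without NW replicate 1 or 3 (adjusted p from 0.0573 to 0.0831), the rise at 1.5 d without NW replicate 1, 2 or 3 or 1.5 d replicate 2 or 3 (adjusted p from 0.0521 to 0.103) and that at 3 d without NW replicate 2 or 3 or 3 d replicate 1 (adjusted p from 0.0568 to 0.0784). The calls against 16 h held in all 20 alternatives.

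The stretches before the Pck2 and Idh2 starts are shown because both genes dipped at 16 h and because that of Pck2 holds a match to the C/EBP-ATF response element, a motif that stress factors of the ATF family are known to bind (chr14:55540016-55540265, plus strand, and chr7:80115351-80115600, minus strand, RefSeq on GRCm38.p6). Capitals mark this match, TTACATCA at bases -103 to -96, and GC boxes:
Pck2: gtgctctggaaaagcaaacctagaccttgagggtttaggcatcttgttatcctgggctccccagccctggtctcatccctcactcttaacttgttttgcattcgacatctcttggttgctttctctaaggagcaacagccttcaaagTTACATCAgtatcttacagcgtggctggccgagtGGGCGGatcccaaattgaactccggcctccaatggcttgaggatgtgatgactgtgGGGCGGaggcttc
Idh2: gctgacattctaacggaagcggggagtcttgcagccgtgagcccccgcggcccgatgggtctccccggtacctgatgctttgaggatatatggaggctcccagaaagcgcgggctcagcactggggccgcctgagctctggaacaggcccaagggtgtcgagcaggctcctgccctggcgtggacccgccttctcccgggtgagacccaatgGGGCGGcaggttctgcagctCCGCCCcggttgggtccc
The element was searched as TGATGNAA on both strands and is held by 3.45% of all 32841 promoters and by 2 members, Pck2 and Echs1. Echs1 was not called in any comparison, with log2 changes of -0.20 at 16 h and -0.39 at 1.5 d.

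Me2, the mitochondrial malic enzyme that turns malate into pyruvate, stood at 26.9, 17.4 and 12.6 CPM in NW, 30.9, 56.2 and 29 in the 16 h wounds, 55.7, 33.9 and 62.3 in those of 1.5 d and 65.1, 55.8 and 78.7 in those of 3 d. All wound libraries lay above NW, and the 3 d libraries, of 55.8 CPM or more, overlapped those of 1.5 d. It rose by 1.03 (SE 0.34, adjusted p = 0.0421) at 16 h, 1.42 (SE 0.34, adjusted p = 0.00971) at 1.5 d and 1.81 (SE 0.35, adjusted p = 0.00298) at 3 d, and without the 4 libraries of short-gene excess it passed at 3 d only (1.14, adjusted p = 0.107 at 16 h, and 1.29, adjusted p = 0.0793 at 1.5 d). The 16 h call also ended without NW replicate 2 or 3 or 16 h replicate 2 (adjusted p from 0.111 to 0.211). Pcx (chr19:4510472-4621752), pyruvate carboxylase, which makes oxaloacetate from pyruvate, stood at 7.71, 15.4 and 17.6 CPM in NW, 34.5, 19.9 and 14.7 in the 16 h wounds, 29.6, 33 and 57.7 in those of 1.5 d and 51.5, 46.2 and 34.1 in those of 3 d. Its 16 h libraries overlapped NW, and all later libraries lay above NW. Pcx rose by 1.56 (SE 0.39, adjusted p = 0.0116) at 1.5 d and 1.69 (SE 0.39, adjusted p = 0.00891) at 3 d, and the 1.5 d call ended without 1.5 d replicate 3 (adjusted p = 0.059). Me1, the cytosolic malic enzyme that makes NADPH, was not called, although its 3 d libraries (60.3, 57.4 and 58.7 CPM) all lay above NW (41.8, 43.6 and 47.8 CPM; log2 change 0.40, adjusted p = 0.185).

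Between wound times the calls lay on the side of the later group. At 1.5 d against 16 h 5 members were higher, beside 2.39% of all genes, and 0 lower, beside 0.47%: Idh1, Idh2, Pck2, Acaa2 and Acaa1a. At 3 d against 16 h 5 were higher, beside 5.86% of all genes, and 0 lower, beside 3.67%, and they were those genes again. For 3 d against 1.5 d edgeR called 0 members, beside 0.141% of all genes. An unadjusted p under 0.05 was found for 2 of the 41 members, beside 1191 of all 14901 genes. DESeq2 called 0 there (0.674% of all genes higher, 0.415% lower), and at 3 d against 16 h it called 7 higher (7.71%) and 1 lower (4.72%). The DESeq2 shares are again of 19745 genes, low-count genes among them. The neutrophil sum was highest at 16 h and the endothelial sum lowest (12.98 to 21.4 CPM against 23.1 to 55.7 at the later times), and their part in these differences was not tested. With the keratinocyte sum as a covariate, Idh2, Pck2 and Acaa2 were called in both comparisons and Idh1 at 3 d, which makes 3 at 1.5 d (1.58% of all genes) and 4 at 3 d (4.41%). Without the 4 libraries of short-gene excess, Idh1, Idh2 and Pck2 were called in both and Acaa2 at 3 d, where 1.34% and 5.32% of all genes were higher. With the gene length balance as a covariate 8 were higher at 1.5 d (5.46%), and at 3 d 7 were higher (9.5%) and 3 lower (8.97%). The 1.5 d call of Idh1 ended without NW replicate 3, 16 h replicate 1, 2 or 3 or 1.5 d replicate 2 or 3 (adjusted p from 0.0501 to 0.1).

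Of the 3 carnitine shuttle genes, through which fatty acids enter, 1 rose at 1.5 d and at 3 d. Of all genes 13.7% and 12% did. Cpt1a (chr19:3323301-3385733), the carnitine palmitoyltransferase of the outer membrane and the controlled step of entry, stood at 63.2, 35.1 and 66.5 CPM in NW, 78, 116 and 72.7 in the 16 h wounds, 89.5, 179 and 175 in those of 1.5 d and 125, 149 and 96.3 in those of 3 d. Wound libraries all exceeded NW, those of 16 h replicates 1 and 3 by little, and those of 1.5 d spread widely. The rise was 1.43 (SE 0.32, adjusted p = 0.00672) at 1.5 d and 1.17 (SE 0.32, adjusted p = 0.0211) at 3 d, and 0.69 (SE 0.32, adjusted p = 0.13) at 16 h did not pass. The 3 d call ended without NW replicate 2 or 3 d replicate 1 or 2 (adjusted p from 0.0623 to 0.079). Both calls ended with the keratinocyte covariate (adjusted p = 0.127 at 1.5 d and 0.304 at 3 d). Cpt2, which reforms acyl-CoA inside, and Slc25a20, the carnitine carrier between them, were not called, with log2 changes of 0.62 and 0.33 at 1.5 d.

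Of the 4 acyl-CoA dehydrogenases, which start each round of oxidation, 1 rose and 1 fell at each wound time. Of all genes 12% to 13.7% rose and 9.15% to 11.2% fell. Acadm (chr3:153922353-153944643), for medium chains, stood at 45.6, 72.2 and 57.5 CPM in NW, 22.1, 28.6 and 29.9 in the 16 h wounds, 23.3, 32.7 and 20 in those of 1.5 d and 27.4, 32.5 and 26.1 in those of 3 d. All 9 wound libraries lay below all NW libraries, and the wound groups overlapped each other. It fell by a log2 change of -1.12 (SE 0.25, adjusted p = 0.00663) at 16 h, -1.21 (SE 0.25, adjusted p = 0.00441) at 1.5 d and -1.03 (SE 0.25, adjusted p = 0.0119) at 3 d, but without the 4 libraries of short-gene excess only the fall at 16 h passed (-0.97, adjusted p = 0.0503 at 1.5 d, and -0.78, adjusted p = 0.103 at 3 d). The 3 d call also ended without NW replicate 2 or 3 d replicate 1 (adjusted p from 0.0537 to 0.0543). With the gene length balance as a covariate, Acadm was called lower at all 3 wound times. Acads (chr5:115110299-115119346), for short chains, was a low gene that stood at 5.49, 4.51 and 6.63 CPM in NW, 12.2, 13.6 and 10.5 in the 16 h wounds, 15.5, 17.9 and 19.2 in those of 1.5 d and 13.4, 17.6 and 13.7 in those of 3 d. Wounds and NW did not overlap, and the 1.5 d libraries lay above those of 16 h. It rose by 1.13 (SE 0.27, adjusted p = 0.009) at 16 h, 1.66 (SE 0.27, adjusted p = 0.00104) at 1.5 d, which is 3.16-fold, and 1.43 (SE 0.27, adjusted p = 0.00273) at 3 d. Its calls at 16 h and 1.5 d held in all 20 alternatives and that at 3 d in 19, the exception being the keratinocyte covariate. Acadl and Acadvl, for long and very long chains, were not called, at 67.4 ± 7.37 and 129 ± 7.73 CPM in NW and 77.3 ± 7.09 and 168 ± 6.87 CPM at 1.5 d (SD, n = 3). The ratio of Acads to Acadm per kb was 0.133, 0.0689 and 0.127 in the NW libraries, 0.610, 0.525 and 0.386 in those of 16 h, 0.734, 0.605 and 1.06 in those of 1.5 d and 0.539, 0.597 and 0.580 in those of 3 d. That no wound library came down to the NW ratios follows from the separation of both genes and is no further support.

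The stretches before the Acadm and Acads starts are shown because these neighbours in the pathway changed in opposite directions (chr3:153944644-153944893 and chr5:115119347-115119596, both minus strand, RefSeq on GRCm38.p6). Capitals mark the only match to any motif searched, a GC box of Acads:
Acadm: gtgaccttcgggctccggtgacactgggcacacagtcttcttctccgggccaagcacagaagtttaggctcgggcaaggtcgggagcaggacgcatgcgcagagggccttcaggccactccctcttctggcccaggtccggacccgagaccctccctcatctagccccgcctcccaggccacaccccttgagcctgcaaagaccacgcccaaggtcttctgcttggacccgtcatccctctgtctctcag
Acads: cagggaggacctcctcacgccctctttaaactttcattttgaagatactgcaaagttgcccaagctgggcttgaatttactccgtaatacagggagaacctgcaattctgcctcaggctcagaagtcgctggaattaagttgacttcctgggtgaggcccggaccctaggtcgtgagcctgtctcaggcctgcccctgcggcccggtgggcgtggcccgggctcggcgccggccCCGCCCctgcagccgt

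Among the genes for the enzymes that finish each round, 2 of 6 fell at 16 h and none rose, beside 11.2% and 13.5% of all genes. Acaa2, the mitochondrial thiolase that releases acetyl-CoA, stood at 141, 172 and 133 CPM in NW, 77.3, 58.5 and 74.5 in the 16 h wounds, 126, 144 and 113 in those of 1.5 d and 127, 133 and 146 in those of 3 d. The 16 h libraries lay below all 9 others, and the later groups overlapped NW. It fell at 16 h by a log2 change of -1.09 (SE 0.19, adjusted p = 0.00148) and was higher than at 16 h by 0.87 (SE 0.19, adjusted p = 0.0282) at 1.5 d and 0.95 (SE 0.19, adjusted p = 0.00744) at 3 d. The 1.5 d call ended without 16 h replicate 1, 2 or 3 or 1.5 d replicate 1 or 2 (adjusted p from 0.0564 to 0.137) and without the 4 libraries of short-gene excess (0.92, adjusted p = 0.0621). Acaa1a, a peroxisomal thiolase, stood at 77.3, 78.8 and 57.3 CPM in NW, 51.9, 47.1 and 46.4 in the 16 h wounds, 111, 77.3 and 90.7 in those of 1.5 d and 76.7, 73.8 and 83.8 in those of 3 d. Its 16 h libraries were also the lowest of the 12, but only the contrasts with later times passed, at 0.94 (SE 0.20, adjusted p = 0.0243) for 1.5 d and 0.69 (SE 0.20, adjusted p = 0.0452) for 3 d, and these held in 12 and 7 of 20 alternatives, and neither without the 4 libraries of short-gene excess. Acaa1a has a near-identical copy, Acaa1b, so its count is uncertain.

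Hadh (chr3:131233420-131272101), the hydroxyacyl-CoA dehydrogenase for shorter chains, stood at 56.2, 105 and 90.9 CPM in NW, 32, 33.7 and 47 in the 16 h wounds, 45.6, 42.5 and 38.2 in those of 1.5 d and 34.5, 44 and 68 in those of 3 d. The 16 h and 1.5 d libraries lay below NW, where replicate 1 was the lowest, and replicate 3 at 3 d overlapped NW. It fell, with log2 changes of -1.16 (SE 0.29, adjusted p = 0.0119) at 16 h and -0.995 (SE 0.29, adjusted p = 0.0246) at 1.5 d, while -0.78 (SE 0.29, adjusted p = 0.0718) at 3 d did not pass. Without the 4 libraries of short-gene excess Hadh passed at 16 h and 3 d and not at 1.5 d (-0.86, adjusted p = 0.05, just over the threshold). The 16 h call ended without 16 h replicate 2 (adjusted p = 0.0545) and the 1.5 d call without NW replicate 2 or 3 or 1.5 d replicate 2 or 3 (adjusted p from 0.0621 to 0.0928). Adipocytes are rich in this pathway, and their marker sum was 49.9 CPM or more in NW and 3.90 or less in every wound library, with Adipoq at 0 in all 16 h libraries. The part of that sum in the falls of Acadm and Hadh was not tested. Hadha and Hadhb, which form the trifunctional protein for long chains, were not called, with log2 changes of 0.23 and -0.20 at 16 h.

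The 6 genes for unsaturated chains and for electron transfer were called in no comparison of 2 groups. Decr1, the dienoyl-CoA reductase for polyunsaturated chains, differed among the groups by the F test and stood at 34.8, 22.4 and 21.5 CPM in NW, 20.3, 17 and 23.6 in the 16 h wounds, 45.1, 39.7 and 33.2 in those of 1.5 d and 37.2, 27.6 and 39.4 in those of 3 d. Its 1.5 d and 3 d libraries lay above all of 16 h, but no pair of groups passed in the edgeR fit without a covariate. DESeq2 and the fit with the gene length balance as a covariate called Decr1 higher at 1.5 d and at 3 d than at 16 h. The enoyl-CoA isomerases Eci1 and Eci2, which handle double bonds, had log2 changes of -0.11 and 0.67 at 1.5 d. Etfa, Etfb and Etfdh, which carry electrons from the dehydrogenases to ubiquinone, had log2 changes of -0.51, -0.12 and -0.52 at 16 h. For Etfa and Etfdh every 16 h library lay below every NW library, and both were called lower at 16 h by DESeq2 and with the gene length balance as a covariate.

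Promoter stretches of 250 bases were found for 37 of 41 members, 45 in all, and Idh3a, Me2, Acaa2 and Decr1 were not matched. A GC box, GGGCGG on either strand, was held by 29 of the 45 and by 32.7% of all promoters. The NRF1 motif, GCGCA followed by its reverse complement, was held by Etfdh and by 0.783% of all promoters. The ETS motif CCGGAAG was held by Idh3g, Cpt2 and Slc25a20 and by 6.91% of all. The E-box CACGTG was held by Ogdh and Pcx and by 6.02% of all. No member held the ERR motif TCAAGGTCA (0.387% of all) or the PPAR motif, AGGTCA repeated after 1 base of any kind (0.0335% of all). These are matches of letters, on both strands, and not sites.

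Other genes of these pathways, 72 in 7 lists, were counted for context, and 71 of them were tested (Cpt1b was not). Of the 71, 23 differed among the groups, or 32.4%, near the 29.7% of all genes. At 16 h 10 rose and 11 fell, beside 13.5% and 11.2% of all genes. At 1.5 d 10 rose and 8 fell, beside 13.7% and 10.8%, and at 3 d 10 rose and 8 fell, beside 12% and 9.15%. Their median log2 change against NW was -0.18, -0.02 and -0.07 at the 3 times. With the keratinocyte covariate the calls against NW given here for Sdha, Mpc2, Acad10, Ppara and Pprc1 ended. So did those of Pdk1 and Got2 at 3 d and of Slc25a10 at 1.5 d. Sdha, the flavoprotein of succinate dehydrogenase, stood at 165, 124 and 146 CPM in NW, 236, 277 and 236 in the 16 h wounds, 269, 272 and 431 in those of 1.5 d and 287, 223 and 229 in those of 3 d. All wound libraries lay above NW, with 1 library of 1.5 d far above the rest. Sdha rose by 0.78 (SE 0.22, adjusted p = 0.0213) at 16 h, 1.16 (SE 0.22, adjusted p = 0.0027) at 1.5 d and 0.76 (SE 0.22, adjusted p = 0.0272) at 3 d. The 16 h call ended without NW replicate 2 or 3 or 16 h replicate 2 (adjusted p from 0.0581 to 0.0851) and the 3 d call without NW replicate 2 or 3 or 3 d replicate 1 (adjusted p from 0.0753 to 0.126). Both also ended without the 4 libraries of short-gene excess (0.72, adjusted p = 0.0704 at 16 h, and 0.71, adjusted p = 0.0812 at 3 d). Sdhd, a membrane subunit of succinate dehydrogenase, was not called, with a log2 change of 0.11 at 16 h.

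Of 10 genes of pyruvate import and pyruvate dehydrogenase control, none rose and 2 fell at 16 h, and 2 rose and 1 fell at 3 d. Of all genes 13.5% rose and 11.2% fell at 16 h, and 12% rose and 9.15% fell at 3 d. Pdk3, a kinase that inhibits pyruvate dehydrogenase, stood at 17.4, 18.2 and 13.6 CPM in NW, 23, 26.3 and 24.2 in the 16 h wounds, 53.4, 35.9 and 48.1 in those of 1.5 d and 54.9, 44.1 and 58.8 in those of 3 d. All wound libraries lay above NW, and those of 1.5 d and 3 d above those of 16 h. Pdk3 rose by 1.48 (SE 0.23, adjusted p = 0.000659) at 1.5 d and 1.68 (SE 0.23, adjusted p = 0.000317) at 3 d. Pdk1, a kinase of the same family, stood at 25.8, 15.8 and 32.7 CPM in NW, 25.6, 16 and 7.15 in the 16 h wounds, 44.2, 38.3 and 67.6 in those of 1.5 d and 98.5, 83.5 and 77.5 in those of 3 d. The 3 d libraries lay above all others, and those of 16 h overlapped NW, with replicate 3 the lowest of all. Pdk1 rose by 1.80 (SE 0.41, adjusted p = 0.00746) at 3 d. Mpc2, a subunit of the mitochondrial pyruvate carrier, fell, with log2 changes of -1.17 (SE 0.33, adjusted p = 0.0214) at 16 h and -1.14 (SE 0.33, adjusted p = 0.0277) at 3 d. Its calls ended without NW replicate 2 or 16 h replicate 1 or 2 (adjusted p from 0.0538 to 0.0919) and without NW replicate 2 or 3 d replicate 1 or 2 (adjusted p from 0.101 to 0.107).

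Of 11 genes of citrate export and of the aspartate and malate shuttles, 4 rose at 16 h and none fell. Of all genes 13.5% rose and 11.2% fell. Got2, the mitochondrial aspartate aminotransferase, stood at 70.6, 93.3 and 78.5 CPM in NW, 201, 225 and 210.3 in the 16 h wounds, 167, 189 and 186 in those of 1.5 d and 163, 157 and 146 in those of 3 d. Every wound library lay above every NW library, and those of 16 h were the highest. Got2 rose by 1.39 (SE 0.17, adjusted p = 0.000159) at 16 h, 1.16 (SE 0.17, adjusted p = 0.000567) at 1.5 d and 0.94 (SE 0.17, adjusted p = 0.00211) at 3 d. Acly, which makes cytosolic acetyl-CoA from citrate, rose by 1.50 (SE 0.30, adjusted p = 0.00332) at 16 h. Slc25a10, the dicarboxylate carrier, rose by 1.28 (SE 0.27, adjusted p = 0.00492) at 1.5 d.

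Of 13 tested genes of fatty acid uptake and activation, 1 rose and 4 fell at 16 h, beside 13.5% and 11.2% of all genes. Acsl4, which activates polyunsaturated fatty acids, rose by 2.63 (SE 0.43, adjusted p = 0.000922) at 16 h. Slc27a1, a fatty acid transporter, fell, with a log2 change of -1.78 (SE 0.26, adjusted p = 0.000495). Fabp4, a fatty acid binding protein abundant in adipocytes and endothelium, fell, with a log2 change of -4.18 (SE 0.79, adjusted p = 0.00239), and the part of the adipocyte and endothelial sums, both highest in NW, was not tested. Of 13 genes of peroxisomal and branched-chain oxidation, none rose and 2 fell at 16 h, beside 13.5% and 11.2% of all genes. Decr2, a peroxisomal dienoyl-CoA reductase, fell, with a log2 change of -1.07 (SE 0.25, adjusted p = 0.0072). Acad10, a member of the acyl-CoA dehydrogenase family, fell, with a log2 change of -1.93 (SE 0.53, adjusted p = 0.0187), which ended without NW replicate 1 or 2 or 16 h replicate 2 or 3 (adjusted p from 0.0504 to 0.0714) and without the 4 libraries of short-gene excess (-1.46, adjusted p = 0.123). Acad8, a dehydrogenase of valine breakdown, was not called, with a log2 change of -0.31.

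Of 8 genes of malonyl-CoA and lipolysis control, 2 rose and 2 fell at 16 h, beside 13.5% and 11.2% of all genes. Plin2, a protein of the lipid droplet surface, stood at 57, 56.1 and 46 CPM in NW, 62.7, 90.9 and 99.5 in the 16 h wounds, 163, 153 and 140.1 in those of 1.5 d and 111, 109.8 and 127 in those of 3 d. All wound libraries lay above NW, with those of 1.5 d highest, and the rise at 1.5 d was 1.52 (SE 0.20, adjusted p = 0.000296). Angptl4, an inhibitor of lipoprotein lipase, rose by 2.34 (SE 0.29, adjusted p = 0.000164) at 16 h and 2.94 (SE 0.30, adjusted p = 4.51e-05) at 1.5 d. Pnpla2, the lipase that starts triglyceride breakdown, fell, with a log2 change of -1.43 (SE 0.29, adjusted p = 0.0039) at 16 h. Of 11 transcriptional regulators, 1 rose and 1 fell at 16 h, no larger a share than the 13.5% and 11.2% of all genes. Ppara, a nuclear receptor known to drive fatty acid oxidation genes, stood at 6.71, 6.65 and 11.5 CPM in NW, 0.801, 2.08 and 0.201 in the 16 h wounds, 0.5, 1.58 and 0.974 in those of 1.5 d and 0.488, 2.11 and 0.434 in those of 3 d. Every wound library lay below every NW library, at 2.11 CPM or less. Ppara fell, with a log2 change of -3.01 (SE 0.88, adjusted p = 0.0243) at 16 h, a call that ended without NW replicate 3 or 16 h replicate 1 or 3 (adjusted p from 0.0554 to 0.0801) and without the 4 libraries of short-gene excess (-2.66, adjusted p = 0.0567). Pprc1, a coactivator of mitochondrial genes, rose by 1.17 (SE 0.29, adjusted p = 0.0117) at 16 h, a call that ended without 16 h replicate 2 (adjusted p = 0.0552). Rxra, the partner of PPAR receptors, was not called, with a log2 change of -0.85 at 3 d (adjusted p = 0.0538).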

How the data were processed

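Full-length complementary DNA was amplified (SMART-Seq v4), cleaved into libraries (Nextera XT) and sequenced paired end, per the labels' protocols. The authors deposited a table of whole-number counts of fragments per gene from featureCounts 2.0.0, which counted fragments over refGene exons (mm10) with no strand, multi-mapping or overlap option, per the file headers. Fragments in exons shared by 2 genes are therefore left out. STAR, SAMtools, Subread and Partek are named in the submitters' processing notes, with other versions not given in the sources used here. Counts were fitted with edgeR 4.0.16 in R 4.3.3: filterByExpr, TMM scaling, robust quasi-likelihood F tests with a mean per group over all 12 libraries, and Benjamini-Hochberg adjustment over 14901 genes, called at an adjusted p under 0.05. SE is the size of the log2 change divided by the square root of F. CPM per kb uses the exon length in the table. A count of 3, taken as the floor, is 0.069 to 0.114 CPM without TMM scaling, the scale of the marker sums. The script was tested on simulated data. The text names all 41 members and, from each list of other pathway genes, up to 3 with the smallest F-test p, of which 1 gene is not reported here. Members and lists were chosen with earlier results of these data known. The alternatives were RLE or total-count scaling, DESeq2 1.42.0, no count filter, a keratinocyte covariate, a replicate block and each library left out. Those on short-gene excess were chosen after seeing the data. Replicates are different mice, and no 2 libraries were identical. Promoters are RefSeq stretches on GRCm38.p6.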

Additional observations from a re-analysis of the deposited data

Results flagged for a closer look

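For 5 members the change against NW differed between wound times by a test of the difference itself (edgeR, adjusted over all genes tested). Idh2 was higher at 1.5 d than at 16 h by 1.55 on the log2 scale (adjusted p = 0.002) and at 3 d by 1.76 (adjusted p = 0.000268). Pck2 was higher by 2.08 at 1.5 d (adjusted p = 0.00558) and by 2.27 at 3 d (adjusted p = 0.000987). Idh1 was higher by 0.91 at 1.5 d (adjusted p = 0.0248) and by 1.01 at 3 d (adjusted p = 0.00583). Acaa2 was higher by 0.87 at 1.5 d (adjusted p = 0.0282) and by 0.95 at 3 d (adjusted p = 0.00744). Acaa1a was higher by 0.94 at 1.5 d (adjusted p = 0.0243) and by 0.69 at 3 d (adjusted p = 0.0452). In all 5 genes each of the 3 libraries at 1.5 d and at 3 d lay above all 3 at 16 h, which their choice by this test made likely. Of all 14901 genes, 1847 did so at 1.5 d and 2533 at 3 d. The 1.5 d calls of Idh1 and Acaa2 held in 11 and 12 of 20 alternatives. Those of Acaa1a held in 12 at 1.5 d and 7 at 3 d.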

How the results depend on the processing

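Of 44 member calls, 14 held in all 20 alternatives and none reversed. Total-count scaling left 3 calls at 1.5 d against 16 h, and it took the median change of all genes to -0.11 at 3 d against NW and to -0.19 at 3 d against 16 h. DESeq2 called 8 members lower at 16 h, 2 lower at 3 d and 8 at 3 d against 16 h. With the keratinocyte covariate 6 members differed among the groups, 5 were higher at 16 h, 1 was higher and 0 lower at 1.5 d, 0 were higher or lower at 3 d, and 3 were called at 1.5 d against 16 h; NW holds the highest sums, so that the covariate also takes up part of wounding. With the gene length balance as a covariate 13 were higher and 8 lower at 16 h, 18 higher at 1.5 d, 12 higher and 3 lower at 3 d, 8 called at 1.5 d and 10 at 3 d against 16 h. Without the 4 libraries of short-gene excess 11 differed, 0 were lower at 1.5 d, and 3 were called at 1.5 d against 16 h. Leaving out each library in turn gave 11 to 16 differing members, with 11 without 16 h replicate 2. At 16 h 4 to 9 were then higher (4 without NW replicate 3 or 16 h replicate 2) and 4 to 6 lower. At 1.5 d 5 to 11 were higher (5 without 1.5 d replicate 3) and 1 to 2 lower, and at 3 d 3 to 9 were higher (3 without 3 d replicate 1) and 0 to 2 lower. Between times the counts were 2 to 5 at 1.5 d against 16 h (2 without any 16 h replicate), 0 to 0 at 3 d against 1.5 d and 4 to 5 at 3 d against 16 h. No pairing by replicate number was seen: the deviations of 18 same-numbered pairs correlated between -0.55 and 0.44, with 6 over 0.1. Only 2 libraries correlated best with their own number. The 4 libraries of short-gene excess, mostly of different numbers, correlated with each other between 0.44 and 0.62. That excess weighs on this check, which therefore cannot exclude a pairing. With the replicate block 12 members differed and 2 were called at 1.5 d against 16 h. The causes of these shifts were not tested. For total-count scaling, the replicate block and each library left out, no share of all genes is given beside the counts. Those counts therefore cannot be read as a result about the members. No member was near the limit of depth, with at least 137 fragments in each library.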

Other observations

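Pairs of enzymes of the same step or of linked steps are set in ratio here, per kb of exon within each library (mean ± SD, n = 3, with no test). The genes are those described above, so the ratios are no separate support for their calls. Mitochondrial Mdh2 over cytosolic Mdh1 was 2.03 ± 0.226 in NW, 4.90 ± 0.703 in 16 h wounds, 3.94 ± 0.204 in those of 1.5 d and 4.04 ± 0.203 in those of 3 d, and no wound library overlapped NW. NADP-linked Idh2 over NAD-linked Idh3a was 2.79 ± 0.207 in NW, 0.627 ± 0.143 in 16 h wounds, 2.30 ± 0.334 in those of 1.5 d and 3.37 ± 0.537 in those of 3 d. All 3 libraries at 16 h, at 0.791, 0.563 and 0.527, lay below the other 9. Against NW that follows from the separation of both genes. Pck2 over Pcx, which remove and make mitochondrial oxaloacetate, was 4.24, 1.72 and 1.58 in NW and 0.523, 0.814 and 0.471 at 16 h, with the highest value in NW replicate 1, where Pcx was lowest. Hadh over Hadha was 1.54 ± 0.619 in NW and 0.570 ± 0.167 at 16 h, and at 3 d replicate 3, with 1.22, lay within the NW range. Dlst over Ogdh (0.915 ± 0.255 in NW, 1.39 ± 0.350 at 16 h) and Sucla2 over Suclg2 (3.68 ± 0.622, 4.12 ± 0.251) overlapped between these groups. Me2 over Me1 (0.204 ± 0.0902, 0.458 ± 0.139) and Acaa2 over Hadhb (2.89 ± 0.641, 1.59 ± 0.457) did not. The partners differ in exon length in every pair, as in Dlst (2767 bases) over Ogdh (7106) and Me2 (7631) over Me1 (3577). Dlst over Ogdh was highest in the library of short-gene excess in each group. The part of that excess in these ratios was not tested.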
